A study of Homo sapiens with 2 samples.

Results

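Complex I, or NADH:ubiquinone oxidoreductase, is the largest enzyme of the mitochondrial respiratory chain. Most of its subunits are encoded in the nucleus, and this account is about the mRNAs of those subunits and of the assembly factors that build the complex. The members are the rows of the deposited table whose symbol starts with NDUF, leaving out hyphenated names and names that end in P and digits. They number 46 of 14914 listed features, and 7 of them carry NDUFAF names and are described apart as assembly factors. The other 39 are called subunits here, although NDUFA4 is now placed in complex IV and NDUFA4L2 is its paralog.

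The study asked which RNAs are bound by CSTF2 in HUH7 cells, an established human hepatocellular carcinoma line. RNA recovered with CSTF2 by RNA immunoprecipitation gave 1 library (IP), and input RNA of the same line gave the other (Input). CSTF2 contacts RNA within the cleavage stimulation factor, which acts at the 3′ ends of pre-mRNAs. A mock immunoprecipitation was not analysed here, so recovery with CSTF2 and recovery with the beads or antibody alone cannot be told apart.

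The values are RPKM, reads scaled to gene length and to the assigned reads of the library. Whole reads were recovered from the deposited values and came to 3220045 assigned reads after IP and 9517885 in Input, which was 2.96 times deeper. Each group is a single library, so no difference below has a replicate check, an SD or a p-value. Ratios carry a 95% exact conditional (Clopper-Pearson) interval that covers counting error only and rests on 50% of the recovered reads. Counts of members past 2-fold use log2((IP + 1)/(Input + 1)), with a pseudocount of 1 RPKM, for features averaging at least 1 RPKM over both libraries. All 8 hepatocyte markers were listed, with 1.43 to 353 RPKM after IP and 4.25 to 311 RPKM in Input. Of 8 markers of blood, stroma and endothelium, 4 were listed, with at most 5.16 RPKM after IP and 7.27 RPKM in Input. The mRNA of CSTF2 itself had 487 RPKM after IP and 6.97 RPKM in Input, a ratio of 69.9 (55.2 to 89.7). Its log2 ratio of 5.94 was the highest of all features past the filter, and the source of these reads was not tested.

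In its working form complex I has a matrix arm, which takes electrons from NADH and passes them along iron-sulfur clusters to ubiquinone, and a membrane arm, which pumps protons. Core subunits, conserved from bacteria, carry the cofactors and the proton channels, while supernumerary subunits surround them. The core subunits of the matrix arm are encoded in the nucleus and those of the membrane arm in mitochondrial DNA. Assembly factors join the modules and are not part of the finished enzyme. Liver cells are rich in mitochondria and depend on the complex to reoxidise NADH.

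CSTF2 acts beside the polyadenylation signal, so annotated 3′ ends are shown for 3 of the 4 members with the lowest log2 ratio past the filter and for the 4 with the highest. The lowest member, NDUFA7, held neither AATAAA nor ATTAAA in its last 50 bases and is not shown. Each line gives 30 bases of the principal transcript in GENCODE v29 (GRCh38), 5′ to 3′ on the strand of the RNA, with AATAAA or ATTAAA in capitals. The first 3 lines are low members.
NDUFB3, chr2:201085721-201085750, plus strand: ttaatcaATTAAAatatatatatatgccaa
NDUFB1, chr14:92116123-92116152, minus strand: gagagaAATAAAaacatgaagaatctgaaa
NDUFC2, chr11:78068304-78068333, minus strand: ttattagttctgcAATAAAtaataggttta
NDUFS1, chr2:206114817-206114846, minus strand: gcagatacAATAAAaacttaattgtgatta
NDUFAF1, chr15:41387355-41387384, minus strand: acaaAATAAAatatttctttaatggcatcc
NDUFB6, chr9:32552999-32553028, minus strand: taatgcaaaAATAAActtgggaactttgca
NDUFV1, chr11:67612505-67612534, plus strand: ggacAATAAAgcgagtgctgcccaccctcc
The windows of NDUFAF1 and NDUFV1 stop 6 and 20 bases short of the annotated end, so that the hexamer is in view. Over all 46 members, the last 50 bases were searched on the RNA strand for AATAAA and ATTAAA, and no member held both hexamers. AATAAA was found in 31 and ATTAAA in 7, which makes 38 members (82.6%). Either hexamer was found in 73.1% of 19502 protein-coding genes. Among genes that passed the level filter here, it was found in 35 of 41 members (85.4%) and in 79.0% of 7595 protein-coding genes. The GU-rich bases after the cleavage site, where CSTF2 binds, were not analysed here.

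Most subunit mRNAs had a lower level after IP than in Input, and none was 2-fold higher. Of the 39 subunits, 36 passed the filter, and 29 of these 36 had a ratio below 1, against 39.6% of all features past the filter. At least 2-fold lower were 10 of the 36 (27.8%), where 6.83% of all 9880 features past the filter and 5.19% of the 7626 protein-coding ones were. At least 2-fold higher were 0 of the 36, where 9.88% of all features and 5.81% of the protein-coding ones were. The median log2 ratio was -0.55 for the subunits and 0.17 for all features. Relative to that 0.17 the subunits at least 2-fold lower numbered 13, a count for which the share over all features is not given here. Together the 39 subunits took 2821 reads (0.0876%) of the IP and 13458 reads (0.141%) of the Input.

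The counting interval lay below 1 for 18 of the 36 subunits, above 1 for 2 and included 1 for 16. Among all features with recovered reads past the filter, 13.4% had an interval below 1 and 26.7% one above 1. Whether an interval excludes 1 also depends on the number of reads, and subunits and all features were not matched for it. The members differed among themselves, and the core subunits of the N module held both the highest subunit and one of the lower ones.

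**Figure D1:**
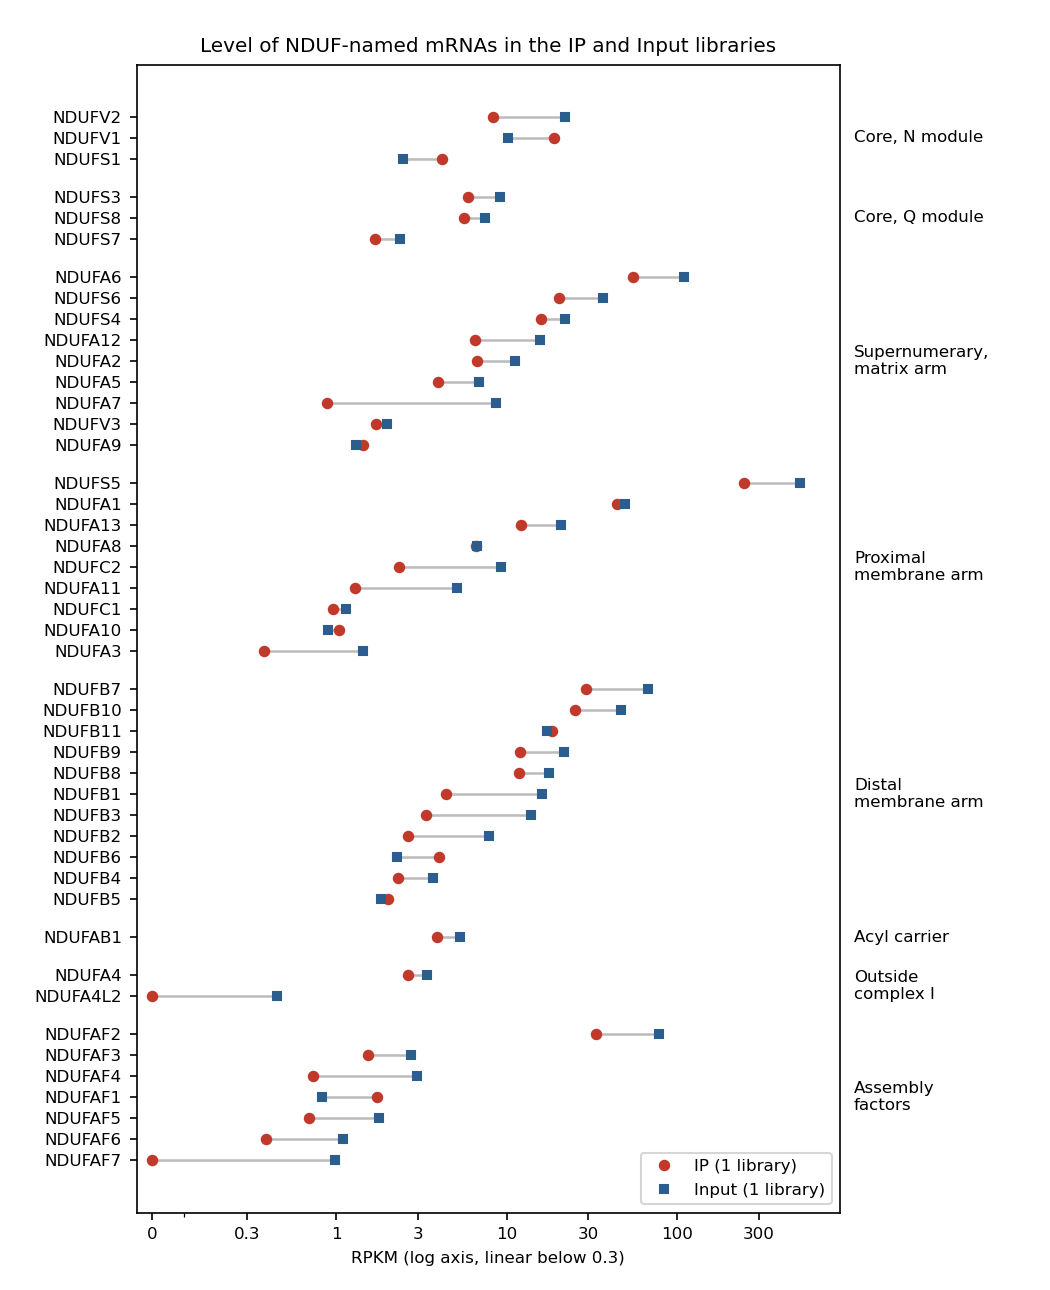
RPKM of NDUF-named mRNAs, leaving out 1 of the 46 (x axis, logarithmic above 0.3 and linear below) in the IP library (circles) and the Input library (squares), 1 library each, by role and by mean level within a role. Circles stand left of squares for most rows, and NDUFS5 has the highest level in both libraries.

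The core subunits of the N module form the tip of the matrix arm, where NADH is oxidised. NDUFV1 (chromosome 11, 67605653 to 67612554, plus strand, GRCh38), which binds NADH and the flavin cofactor, had 252 reads and 18.8 RPKM after IP against 402 reads and 10.2 RPKM in Input. It was 1.85-fold higher after IP, with an interval of 1.47 to 2.33. NDUFS1 (chromosome 2, 206114817 to 206159603, minus strand), the largest subunit and the carrier of several iron-sulfur clusters, had 165 reads and 4.18 RPKM after IP against 287 reads and 2.46 RPKM in Input. Its ratio was 1.70 (1.28 to 2.24). These were the 2 subunits with an interval above 1, and both stayed less than 2-fold higher.

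NDUFV2, which holds an iron-sulfur cluster and binds directly to NDUFV1, stood on the other side. On chromosome 18, from 9102630 to 9134345 on the plus strand, it had 73 reads and 8.36 RPKM after IP against 569 reads and 22.1 RPKM in Input. It was 2.64-fold lower after IP (1.86 to 3.83). A pseudogene, NDUFV2P1, was listed with 2 IP and 10 Input reads, and reads of near-identical copies can be split between them. Thus the mRNAs of the partners NDUFV1 and NDUFV2 had counting intervals that do not overlap and lie on opposite sides of 1. The length recovered for NDUFV1 was 4154 bases and its exon length in GENCODE v29 is 5057, so the annotation behind the counts is not identical to that release for this gene.

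The Q module lies beside the ubiquinone site, and none of its core subunits was at least 2-fold lower or higher. NDUFS7, which carries the last iron-sulfur cluster of the chain, had 1.69 RPKM after IP and 2.37 RPKM in Input, a ratio of 0.713 (0.417 to 1.17). NDUFS8, another iron-sulfur subunit, had 5.63 RPKM after IP and 7.43 RPKM in Input, a ratio of 0.757 (0.524 to 1.07). For both genes the interval included 1, and a difference was not detectable at this depth. NDUFS3, a core subunit without a cofactor, had 5.92 RPKM after IP and 9.13 RPKM in Input, a ratio of 0.649 (0.436 to 0.940). Its exons share 721 bases with PTPMT1 on the same strand, which was listed with 55 IP and 253 Input reads, and the protocols do not say that strand was kept.

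The 9 supernumerary subunits of the matrix arm held the lowest member. NDUFA7 (chromosome 19, 8308768 to 8321396, minus strand) had 4 reads and 0.879 RPKM after IP against 117 reads and 8.70 RPKM in Input. It was 9.90-fold lower, and with so few IP reads the interval ran from 2.62 to 83.6. Its exons share 89 bases with RPS28, a ribosomal protein gene on the opposite strand, listed with 33 IP and 262 Input reads.

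The next lowest of this group was NDUFA12, an accessory subunit at the junction of the N and Q modules, with 6.50 RPKM after IP and 15.7 RPKM in Input. It was 2.42-fold lower (1.49 to 4.15). NDUFA6, a protein of the LYR family that binds an acyl carrier protein, had 250 reads and 54.8 RPKM after IP against 1477 reads and 110 RPKM in Input. It was 2.00-fold lower (1.65 to 2.44) by ratio and stood just short of 2-fold with the pseudocount, at a log2 ratio of -0.99. Both NDUFS6, which binds zinc, and NDUFA5 had intervals below 1, at 1.81-fold lower (1.32 to 2.53) and 1.72-fold lower (1.31 to 2.30).

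At the upper end of the group, NDUFA9, which binds a nucleotide near the Q module, had 1.43 RPKM after IP and 1.30 RPKM in Input, a ratio of 1.10 (0.658 to 1.78). NDUFV3 had 1.71 RPKM after IP and 1.99 RPKM in Input, and NDUFS4, whose loss causes Leigh syndrome, had 15.8 RPKM after IP and 22.0 RPKM in Input. The ratios were 0.862 (0.475 to 1.49) for NDUFV3 and 0.721 (0.467 to 1.08) for NDUFS4. NDUFA2 had 6.68 RPKM after IP and 11.2 RPKM in Input, with a ratio of 0.595 (0.324 to 1.03). So 5 of the 9 had an interval below 1 and 4 an interval that included 1.

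In the proximal membrane arm, the part next to the matrix arm, 7 of 9 members passed the filter and 3 were at least 2-fold lower. NDUFC2 had 20 reads and 2.34 RPKM after IP against 234 reads and 9.27 RPKM in Input, 3.96-fold lower (2.08 to 8.47). NDUFA11 had 20 reads and 1.28 RPKM after IP against 236 reads and 5.12 RPKM in Input, 3.99-fold lower (2.10 to 8.54). NDUFS5, a small protein on the intermembrane face, was the most abundant member in both libraries. It had 432 reads and 245 RPKM after IP against 2735 reads and 524 RPKM in Input, 2.14-fold lower with a narrow interval (1.85 to 2.48).

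Among the rest of this group, NDUFA13, also known as GRIM-19, had 12.2 RPKM after IP and 20.9 RPKM in Input, 1.72-fold lower (1.28 to 2.35). The overlapping YJEFN3, which shares 131 exon bases on the same strand, went the other way, with 11.5 RPKM after IP and 3.52 RPKM in Input. NDUFA1 had 44.2 RPKM after IP and 49.1 RPKM in Input, a ratio of 0.900 (0.652 to 1.23). It shares 341 of its 766 exon bases with RNF113A on the opposite strand, which had 24.6 RPKM after IP and 14.4 RPKM in Input. NDUFA8 and NDUFC1 also had intervals around 1, with ratios of 0.985 (0.408 to 2.16) and 0.845 (0.150 to 3.24), the second on 6 IP and 21 Input reads.

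The 2 members of the group below the filter were NDUFA10 and NDUFA3. NDUFA10 had 1.04 RPKM after IP and 0.894 RPKM in Input, a ratio of 1.17 (0.611 to 2.13). NDUFA3 had 3 reads after IP and 34 in Input, a ratio of 0.261 (0.0175 to 1.29).

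The NDUFB proteins make up the distal membrane arm, and all 11 of their mRNAs passed the filter. NDUFB3 had 12 reads and 3.38 RPKM after IP against 145 reads and 13.8 RPKM in Input, 4.09-fold lower (1.79 to 11.5). NDUFB1 had 32 reads and 4.39 RPKM after IP against 347 reads and 16.1 RPKM in Input, 3.67-fold lower (2.20 to 6.56). NDUFB2 had 2.65 RPKM after IP and 7.87 RPKM in Input, 2.96-fold lower (1.84 to 5.05). On the opposite strand, NDUFB2 shares 1239 exon bases with BRAF, and NDUFB3 shares 218 with FAM126B. NDUFB7, a small protein with paired cysteines that faces the intermembrane space, had 29.2 RPKM after IP and 67.5 RPKM in Input, 2.31-fold lower (1.51 to 3.67). These 4 were the group's members at least 2-fold lower.

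Another 3 NDUFB mRNAs had intervals below 1 without reaching 2-fold. They were NDUFB10 at 1.86-fold lower (1.34 to 2.64), NDUFB9 at 1.81-fold lower (1.34 to 2.49) and NDUFB8 with 11.8 RPKM after IP and 17.8 RPKM in Input. NDUFB9, a LYR protein like NDUFA6, was counted over 2629 bases, whereas its exon length in GENCODE v29 is 4106. It shares 677 exon bases with MTSS1 and 187 with TATDN1, and NDUFB8 shares 325 with HIF1AN, all on the opposite strand. NDUFB4 had 14 reads after IP and 66 in Input, with a ratio of 0.627 (0.234 to 1.44).

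The other 3 had ratios above 1. NDUFB6 had 18 reads and 4.03 RPKM after IP against 30 reads and 2.27 RPKM in Input, a ratio whose interval, 0.684 to 4.33, included 1. NDUFB11, an X-linked gene, had 18.4 RPKM after IP and 17.3 RPKM in Input, and NDUFB5 had 2.01 RPKM after IP and 1.84 RPKM in Input. Their ratios were 1.07 (0.730 to 1.53) and 1.09 (0.608 to 1.88). NDUFB11 shares 636 of its 1418 exon bases with RBM10 on the opposite strand, which had 12.5 RPKM after IP and 7.56 RPKM in Input. Relative to the median of all features, the log2 ratios of NDUFB11, NDUFB5 and NDUFA9 turn negative, at -0.09 in each case.

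NDUFAB1, the mitochondrial acyl carrier protein, serves both the complex and lipoic acid synthesis. It had 3.88 RPKM after IP and 5.32 RPKM in Input, a ratio of 0.730 (0.326 to 1.48). NDUFA4 had 2.62 RPKM after IP and 3.43 RPKM in Input, a ratio of 0.764 (0.402 to 1.37). NDUFA4L2, which hypoxia induces in other settings, had 0 reads after IP and 12 in Input. The interval of its ratio, up to 2.51, included 1, and a difference was not detectable at this depth.

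**Figure D2:**
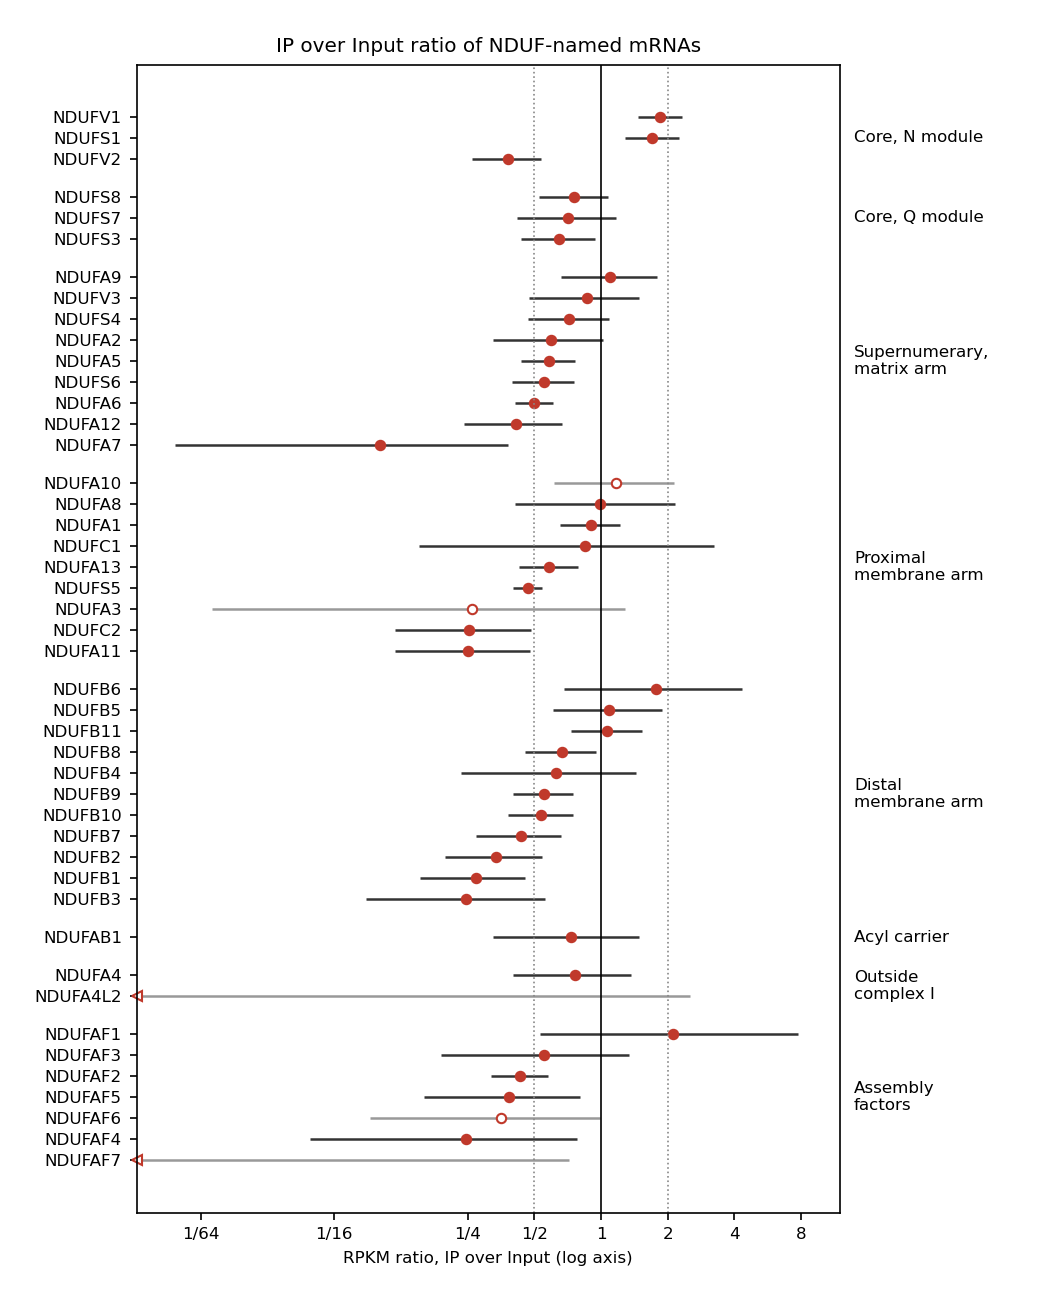
RPKM ratio of IP over Input for NDUF-named mRNAs, leaving out 1 of the 46 (x axis, logarithmic), with the 95% counting interval from 50% of the recovered reads as a line, 1 library per group. Open symbols are members below the level filter, arrowheads mark 0 IP reads, and the dotted lines mark 2-fold; 18 of the 36 subunits past the filter have a line wholly below 1 and 2, NDUFV1 and NDUFS1, have one wholly above.

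The 7 NDUFAF assembly factors had low levels except for NDUFAF2. NDUFAF2, a paralog of NDUFA12 that helps to attach the N module, had 110 reads and 33.6 RPKM after IP against 753 reads and 77.8 RPKM in Input. It was 2.32-fold lower (1.74 to 3.13). No other NDUFAF mRNA passed 1.73 RPKM after IP or 2.98 RPKM in Input.

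NDUFAF3 and NDUFAF4 act together in an early step around the Q module. NDUFAF4 had 6 reads and 0.734 RPKM after IP against 72 reads and 2.98 RPKM in Input, 4.06-fold lower (1.28 to 20.6). NDUFAF3 had 1.53 RPKM after IP and 2.76 RPKM in Input, a ratio of 0.554 (0.189 to 1.34). It shares 527 exon bases with DALRD3 on the opposite strand, which had 20 IP and 59 Input reads.

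NDUFAF5 and NDUFAF7 modify arginines of core subunits. NDUFAF5, which acts on NDUFS7, had 0.688 RPKM after IP and 1.79 RPKM in Input, 2.60-fold lower (1.24 to 6.29) by ratio but less than 2-fold with the pseudocount. NDUFAF7, an arginine methyltransferase, had 0 reads after IP and 34 reads and 0.978 RPKM in Input, with an interval of the ratio from 0 to 0.716. NDUFAF6 had 8 reads after IP and 67 in Input, a ratio of 0.353 (0.0909 to 0.991). Both NDUFAF6 and NDUFAF7 were below the filter.

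NDUFAF1, which helps to build the membrane arm, was the one NDUFAF mRNA with a ratio above 1. It rested on 10 reads after IP and 14 in Input, and its ratio of 2.11 had an interval of 0.528 to 7.73. Past the filter were 5 NDUFAF mRNAs. Of these, NDUFAF2 and NDUFAF4 (40%) were 2-fold lower or more, where 6.83% of all features were. A 2-fold higher level was seen for 0 of the 5. With 9.88% of all features that high, 5 genes are too few for this count to say anything about them. The median log2 ratio of the 5 was -0.72.

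The assembly factors with other names were taken from a list of 12 names, each with a row in the table. Past the filter were 9, and 1 of these (11.1%) was 2-fold lower or more, where 6.83% of all features were. A 2-fold higher level was seen for 0 of the 9, against 9.88% of all features. With 9 genes, neither count can be told from the share of all features. The median log2 ratio of the 9 was 0.34. ACAD9, which works with NDUFAF1 and ECSIT in one assembly complex, had 5.02 RPKM after IP and 2.09 RPKM in Input, a ratio of 2.41 (1.49 to 3.85). ECSIT itself had a ratio of 1.65 (0.931 to 2.84). FOXRED1, an oxidoreductase-like factor, had 3.35 RPKM after IP and 1.60 RPKM in Input, a ratio of 2.10 (1.27 to 3.41). TMEM126B, a membrane protein of the same assembly complex as ACAD9, had 8 reads and 1.03 RPKM after IP against 147 reads and 6.39 RPKM in Input, 6.22-fold lower (2.33 to 23.4). TIMMDC1, which sits in the inner membrane during assembly, had a ratio of 0.668 (0.469 to 0.932). The mRNAs of this assembly complex were thus on both sides of 1.

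The mitochondrially encoded subunits of complex I were all higher after IP. The 7 MT-ND mRNAs ran from a ratio of 1.41 for MT-ND4L to 10.6 for MT-ND6, each with an interval above 1, and 5 were at least 2-fold higher. Together they took 26.7% of the IP reads and 5.41% of the Input reads, shares that enter the total by which each RPKM is divided. The median log2 ratio of the MT-ND mRNAs was 1.52, and that of the nuclear-encoded core subunits was -0.33. Among the nuclear-encoded lists of the other complexes, 5 of 9 mRNAs of complex III and 5 of 10 of complex IV were at least 2-fold lower, with medians of -1.13 and -1.12. For complex V 5 of 15 were, with a median of -0.42, and for complex II 0 of 3, with a median of 0.06. Of 78 mitochondrial ribosomal protein mRNAs, 9 (11.5%) were at least 2-fold lower, with a median of -0.35. For all features past the filter the lower share was 6.83%, the higher share 9.88% and the median 0.17. The lists were not set against mRNAs of like length. Among protein-coding mRNAs of at most 1000 bases other than the members, the lower share was 30.8%, so these counts may not be particular to the lists. No difference between these lists was tested.

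**Figure D3:**
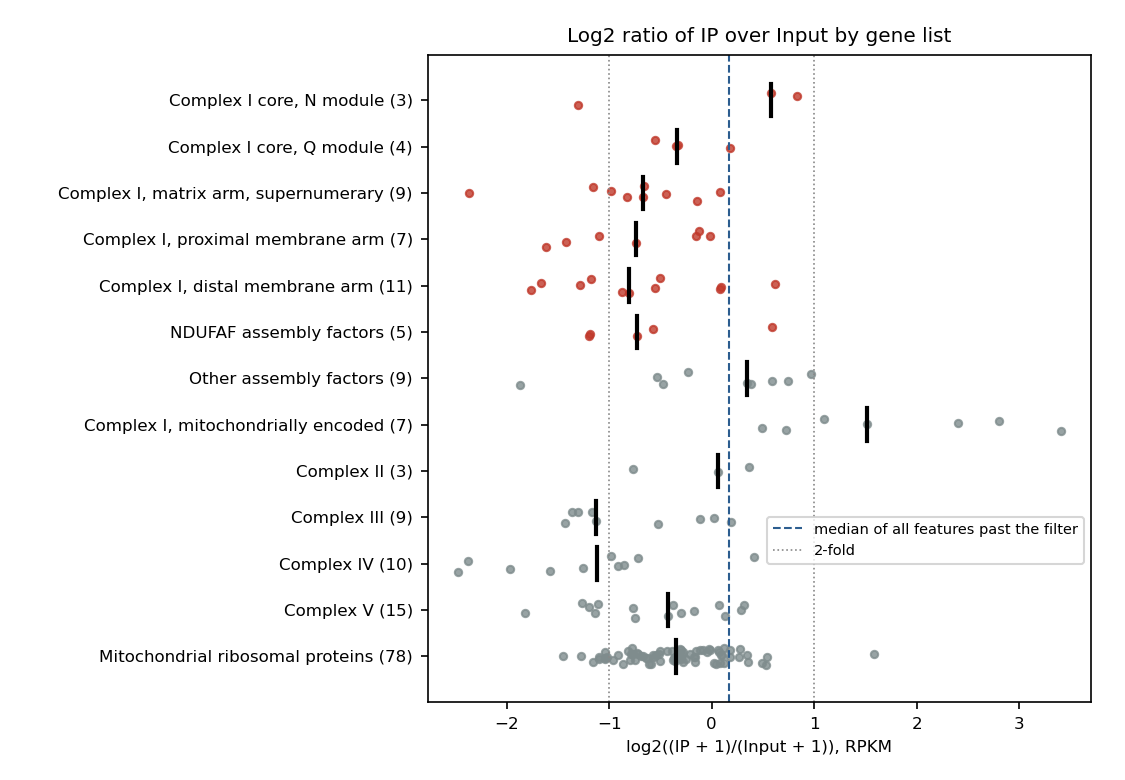
Log2((IP + 1)/(Input + 1)) of RPKM (x axis) for each gene past the filter in the role groups of complex I and the assembly factors (upper 6 rows) and in lists set beside them, with the number of genes in parentheses. Black bars are list medians, the dashed line is the median of all features (0.17) and dotted lines mark 2-fold; the medians of the supernumerary groups lie between -0.80 and -0.67.

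Complex I mRNAs are short, and short mRNAs as a whole were lower after IP. By principal transcript in GENCODE v29, the 41 members past the filter had a median mRNA length of 991 bases, against 3057 for all 7595 protein-coding genes past the filter. Where transcripts of a gene ranked alike, the longest was taken, and which transcript HUH7 cells express was not tested. Among 451 other protein-coding mRNAs of at most 1000 bases past the filter, 30.8% were at least 2-fold lower after IP, with a median log2 ratio of -0.65. Of the 21 members in that class, 9 (42.9%) were, with a median of -0.80. Above that and up to 2000 bases it was 1 of 10 members, with a median of -0.23, and 9.38% of 1525 other mRNAs, with a median of -0.13. Among mRNAs of at most 1000 bases, both shares were well above the 6.83% of all features.

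Above 2000 bases, 2 of 10 members were at least 2-fold lower, NDUFC2 and NDUFAF4, where 1.81% of 5578 other mRNAs were. The median there was -0.21 for members and 0.26 for the others. NDUFAF4 had only 6 IP reads, and NDUFC2 shares 431 exon bases on the same strand with the readthrough NDUFC2-KCTD14. Across the 41 members past the filter, Spearman's rho between mRNA length and log2 ratio was 0.49, and across 7595 protein-coding features it was 0.40. These correlations are across genes that share the same 2 libraries, so they are descriptions without a p-value.

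Relative to the median of other protein-coding mRNAs in the same 1 of 10 bins of mRNA length, 26 of the 41 members were lower. Of the 41, 18 lay within the quartiles for their length, 18 below the lower quartile and 5 above the upper one. The number of subunits at least 2-fold lower became 5 on that scale, and the subunit median became -0.25. The share of other mRNAs at least 2-fold below the median of their own bin is not given here, so that number has no background beside it. The 5 were NDUFA7, NDUFC2, NDUFB3, NDUFB1 and NDUFB2, from -1.85 for NDUFA7 to -1.12 for NDUFB2. All of them except NDUFB1 share exon bases with another listed feature, and NDUFA7 had only 4 IP reads. NDUFS5 came to -0.58 and NDUFV2 to -0.78. At the other end, NDUFV1 was 0.73 above the median for its length, NDUFAF1 0.75 and NDUFB6 0.78, whereas NDUFS1, the longest mRNA, was only 0.06 above. Relative to features of like exon length, which counts all exons of a gene, the number was 10 and the median was -0.63. That comparison uses all features and the one by mRNA length other protein-coding mRNAs, so the difference between them cannot be put down to the measure of length alone. The classes and bins of mRNA length were chosen after the data were seen.

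**Figure D4:**
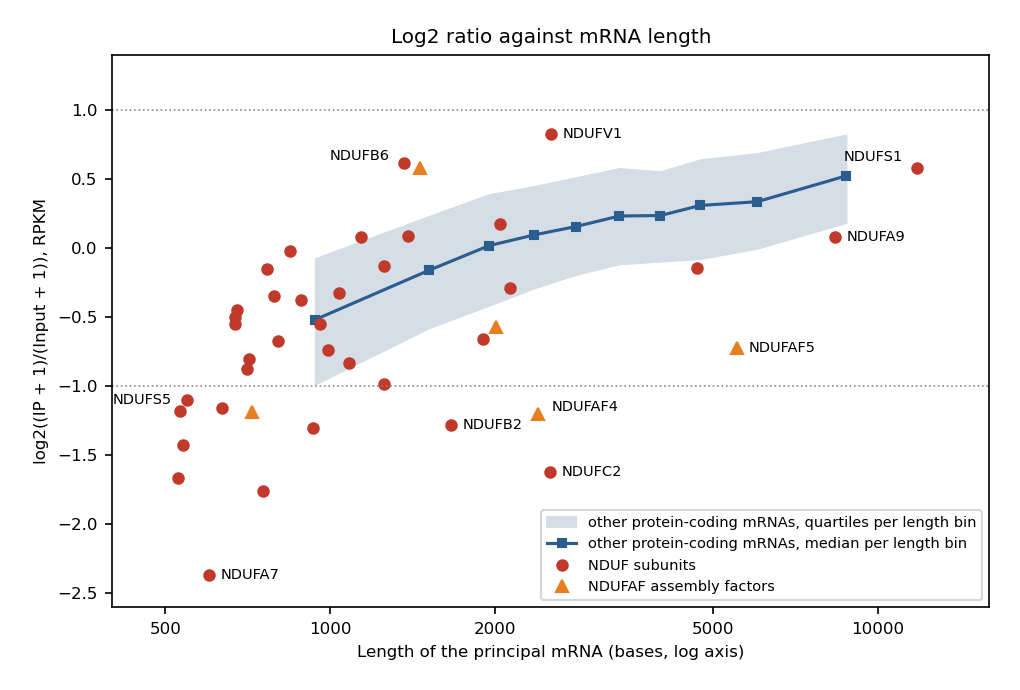
Log2((IP + 1)/(Input + 1)) of RPKM (y axis) against the length of the principal GENCODE v29 mRNA in bases (x axis, logarithmic) for the 36 subunits (circles) and 5 assembly factors (triangles) past the filter. The line and band are the median and quartiles of other protein-coding mRNAs in 10 bins of length, drawn at each bin's median length; the medians climb from -0.52 in the shortest bin to 0.52 in the longest, and 18 of the 41 members lie below the lower quartile of their bin.

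Overlapping genes limit some of these values. Of the 46 members, 16 share exon bases with another listed feature, mostly on the opposite strand, and overlapping features can be credited with the same reads. Among the 24 subunits past the filter without a shared exon, 6 were at least 2-fold lower and 19 had a ratio below 1. The 4 lower subunits with a shared exon were NDUFA7, NDUFB3, NDUFB2 and NDUFC2. The part of the neighbours' reads in their values was not tested.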

How the data were processed

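Per the file headers, the authors deposited RPKM values for 1 IP and 1 Input library of HUH7 cells and a log2 fold change (IP against Input) of their own, for 14914 features named by symbol. Per the submitters' processing notes, FastQC 0.12.0 and build hg38 were used; for the aligner, counter and annotation, names were not given in the sources used here. The log2 fold change that the authors deposited served to recover reads and nothing else. It has the form of a log2 ratio with an average of 0.125 reads added per library, and solving it with the RPKM ratio gave whole reads (tolerance 0.01) and a whole length for 14913 features, all 46 members included. For 44 of the 46, that length equals the exon union in GENCODE v29, from which coordinates are taken.

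Per library, 99.8% of assigned reads belong to listed features, and the median feature past the filter held 44 IP reads and 116 Input reads. Even read numbers were found for 72.5% of features with 1 to 49 IP reads and 70.9% of those with 1 to 49 Input reads, and for 54.0% and 53.8% of those with 200 or more. Mates of a pair may therefore have been counted singly, and intervals use 50% of the reads. PCR copies cannot be told from separate molecules without identifiers, so intervals cover counting error only.

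The text names the core subunits, the 3 highest and 3 lowest members of each role group and of the NDUFAF factors, members below the filter or at 0, and CSTF2. Other members are named to account for the rest, except that 1 of the 46, although in every count, is not reported here by name. Members, lists and alternatives were chosen with earlier results of these data known. The recovery was tested on simulated data. Python 3.11.15, numpy 2.4.6, scipy 1.17.1, pandas 2.3.3 and matplotlib 3.10.9 were used.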

Additional observations from a re-analysis of the deposited data

How the results depend on the processing

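The number of subunits at least 2-fold lower (10) became 6 with a pseudocount of 5 RPKM, 17 at 1.5-fold, 6 without members that share exons with another listed feature and 5 relative to protein-coding mRNAs of like length, where the subunit median became -0.25. It lay between 8 and 13 under the other settings: a pseudocount of 0.1 RPKM, no filter or one of 5 RPKM, centring on the median of all features, at least 20 reads, centring on features of like exon length, and NDUFA4 and NDUFA4L2 left out. The share of all features at least 2-fold lower is given for the main setting only, so these counts have no background of their own. At 1.5-fold, 2 subunits and 1 assembly factor were higher. The number of lower assembly factors (2) became 1 with a pseudocount of 5 RPKM and 1 with a filter of 5 RPKM, and 3 with a pseudocount of 0.1 RPKM, at 1.5-fold and relative to features of like exon length. Their median (-0.72) became -1.21 with a pseudocount of 0.1 RPKM and -0.26 with one of 5 RPKM. No named member at least 2-fold lower changed sign. Of the 32 named members past the filter, 3 changed sign on centring on all features and 3 on centring on features of like exon length, all with log2 ratios between -0.12 and 0.09. Relative to protein-coding mRNAs of like mRNA length, members farther from 0 changed sign as well. NDUFB4 went from -0.50 to 0.02, NDUFS4 from -0.45 to 0.07 and NDUFA1 from -0.15 to 0.37. NDUFAB1, NDUFS7, NDUFS8, NDUFA8 and NDUFC1 also turned positive, while NDUFA9 turned negative, from 0.08 to -0.45. With all reads taken as independent, the intervals of 21 of the 36 subunits past the filter lay below 1 and those of 2 above 1. The subunits whose interval moved below 1 were NDUFS8, NDUFA2 and NDUFS4. Of all 9880 features past the filter, 1981 then lay below 1 and 3566 above 1. The settings for shared exons, mRNA length and all reads were chosen after the data were seen. No paired analysis was possible because each group has 1 library. Depth limits the members with few IP reads, such as NDUFA7 with 4.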

Other observations

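Of the NDUF rows that the rule leaves out, 2 overlap members. NDUFC2-KCTD14, a readthrough of NDUFC2 and its neighbour, had 14 reads and 5.26 RPKM after IP against 217 reads and 27.6 RPKM in Input, 5.24-fold lower. It shares 431 exon bases with NDUFC2, which had 20 and 234 reads, so the same reads can stand behind both. NDUFB2-AS1, antisense to NDUFB2, had 23 reads and 4.33 RPKM after IP against 214 reads and 13.6 RPKM in Input, 3.15-fold lower, and shares 321 exon bases with NDUFB2. The pseudogene NDUFV2P1 had 2 reads after IP and 10 in Input, a ratio of 0.591 (0.0125 to 5.28), beside 73 and 569 reads for NDUFV2. GCSHP3, a processed pseudogene on the strand of NDUFS1, had 10 reads after IP and 2 in Input and shares 391 exon bases with it.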
